A study of Mus musculus with 12 samples.

Results

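The costimulatory and checkpoint ligands of dendritic cells were taken as 9 genes chosen by symbol: Cd80, Cd86, Icosl, Cd274, Pdcd1lg2, Tnfsf4, Tnfsf9, Cd40 and Cd83. These are 9 of the 55335 genes in the deposited tables, and all 9 passed the filter on low counts that left 14008 genes. RNA was sequenced from bone marrow-derived dendritic cells (BMDCs) of C57BL/6 mice, grown from marrow for 6 days with GM-CSF, in 4 groups of 3 replicates. WT BMDCs carried CreER, a Cre recombinase switched on by tamoxifen, with normal Ctcf alleles, and KO BMDCs carried CreER;CTCF fl/fl, in which the Ctcf alleles are flanked by loxP sites. CreER was expressed from the Rosa26 locus, so every cell type in the marrow culture carried it, and 4-OH tamoxifen was given only on the first day of culture. WTL and KOL are the same cells after LPS at 100 ng/ml for 3 h, and WT and KO had no LPS. Whether WT cultures also received 4-OH tamoxifen is unclear from the sources; if only KO cultures did, the drug and the loss of CTCF cannot be told apart.

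Dendritic cells activate T cells by showing antigen on MHC molecules together with surface ligands that raise or restrain the response. CD80 and CD86 bind CD28, which costimulates, and CTLA-4, which inhibits; ICOSL binds ICOS; PD-L1 and PD-L2, encoded by Cd274 and Pdcd1lg2, bind the inhibitory receptor PD-1. OX40L (Tnfsf4) and 4-1BBL (Tnfsf9) are ligands of the TNF superfamily, CD40 is the receptor through which T cell help reaches the dendritic cell, and CD83 is a maturation marker that keeps MHC class II and CD86 on the surface. LPS, sensed by TLR4, is a standard stimulus of dendritic cell maturation, and CTCF is a DNA-binding protein that anchors chromatin loops and domain boundaries.

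Total expected counts were 12769773 to 16586334 per library, with 5.165% of them on ribosomal RNA genes in WTL replicate 2 and at most 1.185% in the others. Ctcf itself, on the scale of normalized counts (counts scaled to a common library size by the TMM method of edgeR), stood at 1050.9, 987.06 and 974.92 in WT and at 569.73, 561.67 and 515.98 in KO. Ctcf RNA was thus lower in every KO library than in any WT library, at 0.547 of the WT level (log2 fold change -0.87, SE 0.076, edgeR adjusted p = 3.9e-07), and the level of KOL, 526.41 to 563.47, was likewise below the 745.34 to 886.07 of WTL. This count covers the whole gene and does not separate the loxP-flanked part, so it does not measure how much CTCF protein remained. The study reported efficient depletion of Ctcf mRNA and of the protein, and CTCF binding that was gone or much weaker in KO and KOL. The dendritic markers Itgax, Cd74 and H2-Aa were among the 10 of a dendritic list whose summed normalized count was 134244 to 245048 across libraries. Markers of B cells (8.09 to 29.8 summed normalized counts), T cells (1.92 to 28.7), NK cells (11.7 to 49.6), mast cells or basophils (0 to 9.57) and epithelial or stromal cells (41.3 to 130) were low. The labels call the samples biological triplicates without naming animals or cultures, so the p-values measure the spread between these samples.

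Promoter windows of RefSeq (GRCm38.p6, the mm10 build), from 250 bases before to 50 bases after the start site, were at hand for 4 of the 9 genes: Cd80, Cd274, Pdcd1lg2 and Icosl. They are shown because Cd80 and Cd274 rose with LPS while the neighbour Pdcd1lg2 did not, and because Icosl and Cd274 were lower in KOL than in WTL. The windows lie at chr16:38458683-38458982, chr19:29367188-29367487, chr19:29410669-29410968 and chr10:78069118-78069417, all on the plus strand, in the order of the lines that follow. The Cd80 window lies inside the gene as annotated in GENCODE M21 (chr16:38455561-38496335). It is therefore not the promoter at the GENCODE start of Cd80. Capitals mark the matches found to 7 motifs searched on both strands.
Cd80: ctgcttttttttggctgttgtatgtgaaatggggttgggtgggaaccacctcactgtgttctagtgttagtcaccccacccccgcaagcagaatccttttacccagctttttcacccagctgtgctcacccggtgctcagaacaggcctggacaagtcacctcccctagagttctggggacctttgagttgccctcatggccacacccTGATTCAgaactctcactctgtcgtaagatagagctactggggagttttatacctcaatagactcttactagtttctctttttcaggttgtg
Cd274: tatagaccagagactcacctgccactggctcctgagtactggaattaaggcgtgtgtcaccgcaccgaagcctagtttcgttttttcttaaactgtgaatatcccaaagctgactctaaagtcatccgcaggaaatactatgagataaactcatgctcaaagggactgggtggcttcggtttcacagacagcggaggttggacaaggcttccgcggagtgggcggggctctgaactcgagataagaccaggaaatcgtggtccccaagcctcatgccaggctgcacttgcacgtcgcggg
Pdcd1lg2: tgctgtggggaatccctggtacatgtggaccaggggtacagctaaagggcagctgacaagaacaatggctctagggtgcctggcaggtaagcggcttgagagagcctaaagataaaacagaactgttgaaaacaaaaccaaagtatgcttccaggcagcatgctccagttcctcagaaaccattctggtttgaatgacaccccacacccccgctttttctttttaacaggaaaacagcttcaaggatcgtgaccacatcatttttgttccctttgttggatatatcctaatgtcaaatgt
Icosl: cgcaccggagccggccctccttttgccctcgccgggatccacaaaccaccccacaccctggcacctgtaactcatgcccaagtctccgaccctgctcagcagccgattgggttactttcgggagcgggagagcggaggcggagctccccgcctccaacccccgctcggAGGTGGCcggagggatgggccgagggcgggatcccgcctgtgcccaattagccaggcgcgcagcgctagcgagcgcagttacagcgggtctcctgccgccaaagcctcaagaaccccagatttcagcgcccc
The Cd80 window held 1 AP-1 motif (TGANTCA), at -42 to -36 from the RefSeq start site, and 7.81% of the 32851 RefSeq promoter windows held that motif. The Icosl window held 1 CTCF core motif (AGGNGGC), at -82 to -76, which 29.4% of windows held. The Cd274 and Pdcd1lg2 windows matched none of the 7. The other motifs searched were the kappa-B site in 2 forms (in 1.63% and 1.75% of windows), the STAT site TTCNNNGAA (8.3%), the core of the interferon-stimulated response element (3.44%) and the PU.1 site GAGGAAGT (3.2%), and the absence of a match says only that these letters are not in the window.

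Levels of different genes were compared as TPM, which is per estimated mean transcript length, so the order of the genes rests on those estimates. In WT BMDCs the order by mean TPM ran from Cd83 (128 ± 1.6, SD, n = 3) and Cd274 (118 ± 4.59) through Cd86 (71 ± 4.09), Cd40 (66.2 ± 8.11), Cd80 (52.9 ± 2.27), Pdcd1lg2 (48.8 ± 1.86), Icosl (44.6 ± 1.78) and Tnfsf4 (36.6 ± 2.43) to Tnfsf9 (15.9 ± 1.71). Cd86 and Cd40 overlapped between libraries, and every other pair of neighbours in that order stood apart. After LPS, Cd40 led by a wide margin in WTL at 997 ± 80.2 TPM. Cd274 (321 ± 26.2), Cd86 (290 ± 33.1), Cd80 (255 ± 28.4) and Cd83 (232 ± 41.5) followed with overlapping ranges from each to the next, and Pdcd1lg2 came last at 34 ± 2.44 TPM. The margin of Cd40 depends on its estimated mean length in WTL, 1247 bases beside 3622 for Cd274. Annotated transcripts of Cd40 have 348 to 2986 bases. By normalized counts Cd274 (mean 16425) stood above Cd40 (15237) in WTL. In KO BMDCs, Cd274 (77.1 ± 3.87) and Cd83 (73.3 ± 2.63) overlapped at the top, Cd40 ranked sixth at 28.9 ± 1.61 TPM, and Tnfsf9 was lowest at 4.76 ± 0.3. In KOL, Cd40 was again first (581 ± 60.3 TPM), but Cd86 (392 ± 15.3), Cd80 (324 ± 18.4) and Cd83 (299 ± 31.8) all stood above Cd274 (203 ± 24.7). Added over the 9 genes, TPM was 582 ± 4.36 in WT, 2438 ± 175 in WTL, 381 ± 10.1 in KO and 2070 ± 81.4 in KOL.

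**Figure D1:**
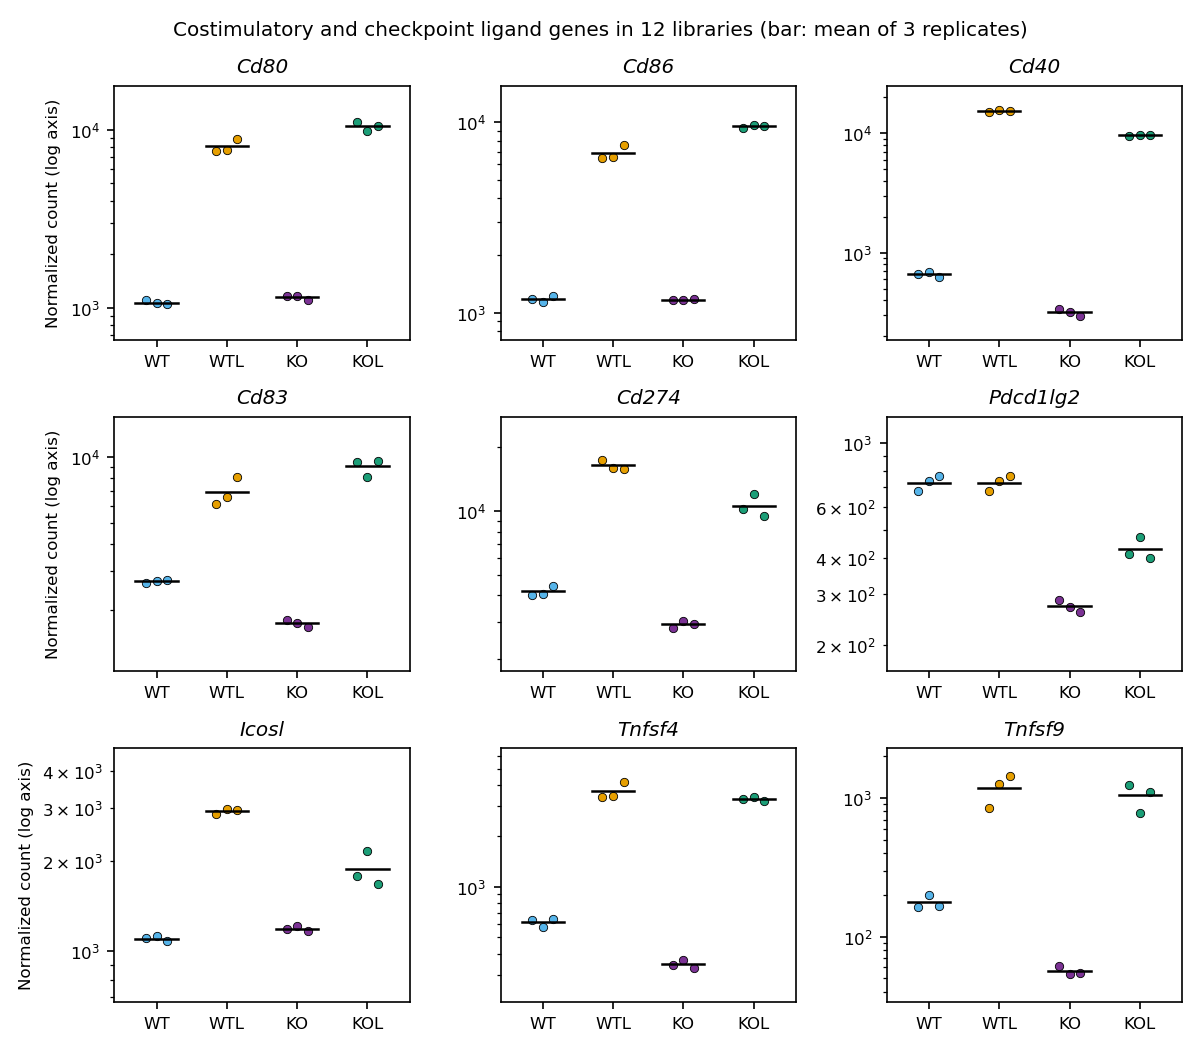
Normalized counts of the 9 genes (log axis, a panel for each gene) in the 3 libraries of WT, WTL, KO and KOL; points are libraries and bars are group means. Cd40 runs from 294.58 in its lowest KO library to 15480 in its highest WTL library, and the Pdcd1lg2 libraries of WT (677.91 to 765.76) and WTL (682.42 to 765.54) nearly coincide.

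The first comparison asked how LPS changed the ligands in WT BMDCs. Of the 9 genes, 8 rose more than 2-fold and 0 fell, beside 12.6% of all 14008 genes tested that rose and 9.99% that fell, and the median log2 fold change of the 9 was 2.55 against -0.02 over all genes. The exception was Pdcd1lg2. Calls used edgeR's quasi-likelihood test with a Benjamini-Hochberg adjusted p under 0.05 and the fold cutoff of the comparison. Taken as log2(TPM + 1), the median of all genes shifts by -0.49 in this comparison and by -0.43 in the LPS comparison within KO. Limma on these values, which differs from the edgeR fit in scale, test, pseudocount and filter together, called 766 genes higher and 1973 lower in place of 1766 and 1400, and 6 of the 9 ligand genes remained past the 2-fold cutoff. The summed markers of macrophages, mostly Csf1r, were 15730 to 17029 normalized counts in WT and 8248 to 10630 in WTL. Of these markers Csf1r fell (log2 -1.18) and Fcgr1 rose (1.99), while Adgre1 (0.27) and Mertk (-0.06) did not pass the test. The summed markers of neutrophils, mostly S100a8 and S100a9, were 1040 to 1140 in WT and 1489 to 1750 in WTL. Those of dendritic cells were 151480 to 159896 in WT and 186148 to 231660 in WTL. Of the 10 dendritic markers only Zbtb46 (log2 1.17) passed the 2-fold cutoff. By adjusted p alone 5 were higher and 1 lower, beside 4209 and 4224 of all 14008 genes. The part of these markers in the ligand differences was not tested.

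Among the CD28-family ligands, Cd80 had 1098.6, 1055.8 and 1046.7 normalized counts in WT and 7641.5, 7683.5 and 8938.8 in WTL, a 7.58-fold rise (log2 2.92, SE 0.079, edgeR adjusted p = 7.3e-13). Cd86 went from 1173, 1141.4 and 1223 to 6493.8, 6571 and 7593.8, a 5.84-fold rise (log2 2.55, SE 0.073, edgeR adjusted p = 1.2e-12). For both genes the lowest WTL library was far above the highest WT library, and WTL replicate 3 was the highest. Icosl rose less, from 1076 to 1120.4 normalized counts in WT to 2860.5, 2975.7 and 2948.4 in WTL (2.66-fold, log2 1.41, SE 0.084, edgeR adjusted p = 2.8e-09). By limma on log2(TPM + 1) the Icosl difference was 0.89 (limma adjusted p = 1.2e-05), under 2-fold.

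The PD-1 ligands parted. Cd274 had 4034.4, 4057.2 and 4416.5 normalized counts in WT and 17377, 16021 and 15878 in WTL, a 3.94-fold rise (log2 1.98, SE 0.088, edgeR adjusted p = 1.2e-10). Pdcd1lg2 had 677.91, 735.47 and 765.76 in WT and 682.42, 734.45 and 765.54 in WTL. Its groups overlapped fully, and the log2 fold change was 0.00 with a 95% interval of -0.15 to 0.16 (edgeR adjusted p = 0.98). As TPM, Pdcd1lg2 was 46.83 to 50.5 in WT and 32.37 to 36.81 in WTL (-0.51 by limma on log2(TPM + 1), adjusted p = 0.00039), close to the shift of the median gene on that scale.

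Both TNF superfamily ligands rose. Tnfsf4 went from 573.62 to 646.49 normalized counts in WT to 3420.2 to 4162.6 in WTL (5.97-fold, log2 2.58, SE 0.089, edgeR adjusted p = 7.7e-12). Tnfsf9 had 163.51, 199.59 and 167.67 in WT and 853.7, 1259.8 and 1434.3 in WTL (6.69-fold, log2 2.74, SE 0.195, edgeR adjusted p = 2e-08). Tnfsf9 had the widest spread of the 9 genes after LPS in proportion to its level, and its WT and WTL libraries still did not overlap.

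Cd40 showed the greatest fold change of the 9 genes. Its normalized counts were 657.7, 683.48 and 627.47 in WT and 14982, 15480 and 15250 in WTL, a 23.2-fold rise (log2 4.54, SE 0.074, edgeR adjusted p = 6.8e-15). Cd83, already the highest of the 9 in unstimulated WT cells by TPM, rose 2.56-fold, from 2643.7, 2700.4 and 2731.2 normalized counts to 6070.3, 6551.5 and 8081.8 (log2 1.36, SE 0.099, edgeR adjusted p = 2.6e-08). On the log2(TPM + 1) scale the Cd83 difference was 0.83 (limma adjusted p = 0.00013), under 2-fold.

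The second comparison asked what CTCF depletion did before any stimulus. In KO against WT BMDCs, 6 of the 9 genes fell and 0 rose at a cutoff of 1.3-fold, beside 17.2% of all genes tested that fell and 17.3% that rose, and the median log2 fold change was -0.64 against -0.01 over all genes. The 6 were Tnfsf9, Pdcd1lg2, Cd40, Tnfsf4, Cd83 and Cd274, in order of the size of the fall. Cd80, Cd86 and Icosl were not called. By limma on log2(TPM + 1) over all genes, 1563 were called higher and 2527 lower in place of 2427 and 2405, and of the 9 again 6 fell and 0 rose.

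Tnfsf9 had 61.01, 53.766 and 54.655 normalized counts in KO, 0.32 of the WT level (log2 -1.65, SE 0.247, edgeR adjusted p = 8.2e-05), and Tnfsf4 had 344.53, 365.8 and 328.85, 0.561 of the WT level (log2 -0.83, SE 0.09, edgeR adjusted p = 3.6e-06). Pdcd1lg2 had 287.11, 269.79 and 259.38 (log2 -1.42, SE 0.084, edgeR adjusted p = 7.3e-09), and Cd274 had 2796.6, 3040.7 and 2934.7 (log2 -0.51, SE 0.086, edgeR adjusted p = 0.00022). Every KO library was below every WT library for these 4 genes.

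Cd40 had 336.45, 320.68 and 294.58 normalized counts in KO, 0.484 of its WT level (log2 -1.05, SE 0.069, edgeR adjusted p = 2.3e-08). Cd83 had 1798, 1727.2 and 1663.7, 0.643 of its WT level (log2 -0.64, SE 0.099, edgeR adjusted p = 0.00011). The KO and WT libraries did not overlap for either gene. Cd80 was at 1162.8, 1158.9 and 1104.2 in KO (log2 0.10, 95% interval -0.05 to 0.25, edgeR adjusted p = 0.32), Cd86 at 1160.1, 1165.6 and 1181.1 (log2 -0.01, -0.15 to 0.13, edgeR adjusted p = 0.91) and Icosl at 1187, 1209.7 and 1163.5 (log2 0.11, -0.05 to 0.28, edgeR adjusted p = 0.31). The intervals of these 3 genes lay within the 1.3-fold cutoff. Cd86 overlapped between KO and WT, while the KO libraries of Cd80 and Icosl lay just above those of WT.

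Cell type markers also moved between KO and WT. The summed normalized count of 4 macrophage markers was 24508 to 25359 in KO and 15730 to 17029 in WT, with Csf1r higher (log2 0.73) and Adgre1 (-0.81), Mertk (-1.16) and Fcgr1 (-1.93) lower. That of 5 neutrophil markers was 573 to 662 in KO and 1040 to 1140 in WT, and that of the 10 dendritic markers 134244 to 135864 and 151480 to 159896, with Flt3 (log2 -2.00), H2-Aa (-1.15) and H2-Ab1 (-0.76) lower and Itgax (0.84) higher. Their part in the ligand differences was not tested. The study selected CD11c+ cells with magnetic beads before stimulation, a step that retains any cell with CD11c on its surface. In bulk RNA, fewer cells of a type and less RNA per cell cannot be told apart.

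The third comparison set the stimulated cells side by side. In KOL against WTL, 4 of the 9 genes fell and 0 rose at a cutoff of 1.5-fold, beside 12.5% of all genes tested that fell and 12.5% that rose; the median log2 fold change was -0.18 against -0.04 over all genes. The 4 were Pdcd1lg2, Cd40, Icosl and Cd274. By adjusted p alone, 3 genes were higher in KOL, Cd80, Cd86 and Cd83, where 21.4% of all genes were higher.

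The inhibitory PD-1 ligands were both lower in KOL. Cd274 had 10239, 12030 and 9480.8 normalized counts in KOL, below all WTL libraries (0.644 of the WTL level, log2 -0.63, SE 0.085, edgeR adjusted p = 3.1e-05). Pdcd1lg2 had 411.85, 472.69 and 399.35, also below all WTL libraries (0.587 of that level, log2 -0.77, SE 0.083, edgeR adjusted p = 3.7e-06). Icosl had 1785.1, 2155.2 and 1674.3 against 2860.5 and more in WTL (0.639 of that level, log2 -0.65, SE 0.083, edgeR adjusted p = 2e-05). Without KOL replicate 3, the lowest for Cd274 and Icosl, their log2 fold changes were -0.56 and -0.57, under the 1.5-fold cutoff, and 2 genes remained called.

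Cd40 had 9443.6, 9642.2 and 9707.1 normalized counts in KOL, 0.63 of the WTL level (log2 -0.67, SE 0.063, edgeR adjusted p = 1e-06), with no overlap. The classical costimulatory ligands stood on the other side. Cd80 had 11029, 9868 and 10503 in KOL (log2 0.37, SE 0.073, edgeR adjusted p = 0.00085) and Cd86 had 9360.8, 9689 and 9575.8 (log2 0.47, SE 0.069, edgeR adjusted p = 6.7e-05), and for both genes every KOL library was above every WTL library. Cd83, at 9541.4, 8120 and 9554.4, gave 0.39 (SE 0.097, edgeR adjusted p = 0.0043) and also did not overlap with WTL. All 3 differences were under 1.5-fold. Cell type markers moved here too. The macrophage marker sum, most of which is Csf1r, was 7028 to 10086 in KOL and 8248 to 10630 in WTL, while its members Fcgr1 (log2 -2.20) and Mertk (-1.13) fell. Of the 10 dendritic markers 4 fell, where 12.5% of all genes did: Ciita (-0.81), Itgam (-0.68), Csf2ra (-0.64) and Flt3 (-0.59). By adjusted p alone 6 were lower and 2 higher, Itgax (0.21) and Zbtb46 (0.38), beside 3266 lower and 2991 higher of all 14008 genes. The neutrophil sum, mostly S100a8 and S100a9, was 1157 to 1390 in KOL and 1489 to 1750 in WTL, with Mpo (-1.03) and S100a9 (-0.94) lower and S100a8 (0.004) unchanged. The other 2 of its genes were too low to be tested and moved in opposite directions. Ly6g had 10.678 to 19.89 normalized counts in KOL and 1.3487 to 3.2498 in WTL, and Elane had 0 to 1.17 and 6.7433 to 11.916. Cd8a (-2.70) was lower, and Epcam (2.46-fold) and Klrb1c (1.79-fold, edgeR adjusted p = 0.043, lost in DESeq2) were higher, all with at most 115.06 normalized counts in any of these libraries. The part of these markers in the ligand differences was not tested.

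The TNF superfamily ligands did not pass the test after LPS. Tnfsf4 was at 3316.3, 3386 and 3208.7 normalized counts in KOL (log2 -0.16, 95% interval -0.32 to 0.01, edgeR adjusted p = 0.14), below all WTL libraries by a small margin. Tnfsf9 was at 1243.1, 775.73 and 1110.5 (log2 -0.18, -0.52 to 0.16, edgeR adjusted p = 0.42) and overlapped with WTL.

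The LPS response of CTCF-deficient cells was then compared with that of WT cells. In KOL against KO, 7 of the 9 genes rose more than 2-fold, beside 15.1% of all genes tested, and 0 fell, beside 13%. Pdcd1lg2 (log2 0.65, SE 0.087, edgeR adjusted p = 1.3e-05) and Icosl (log2 0.66, SE 0.084, edgeR adjusted p = 8.1e-06) were higher but under 2-fold, so that by adjusted p alone all 9 were higher, beside 33.6% of all genes tested. By limma on log2(TPM + 1) neither passed an adjusted p of 0.05, with 0.19 for Pdcd1lg2 (adjusted p = 0.08) and 0.18 for Icosl (adjusted p = 0.12), and over all genes 931 were called higher and 2177 lower in place of 2113 and 1819. The macrophage marker sum, mostly Csf1r, was 24508 to 25359 in KO and 7028 to 10086 in KOL. Of its members Csf1r fell (log2 -2.04), Fcgr1 (1.71) and Adgre1 (1.10) rose, and Mertk (-0.02) did not pass the test. The neutrophil sum was 573 to 662 in KO and 1157 to 1390 in KOL. Of the 10 dendritic markers 5 rose, where 15.1% of all genes did: Zbtb46 (1.71), Flt3 (1.70), H2-Ab1 (1.37), Cd74 (1.32) and H2-Aa (1.28). By adjusted p alone 4 were lower, Csf2rb (-0.80), Itgam (-0.79), Csf2ra (-0.75) and Itgax (-0.73), beside 4752 of all 14008 genes. The part of these markers in the ligand differences was not tested. The interaction term of the edgeR fit, which is the log2 LPS response in KO minus that in WT, passed an adjusted p of 0.05 with a positive sign for 6 of the 9 genes, beside 8.7% of all genes tested, and with a negative sign for 1, beside 8.75%. The median interaction of the 9 was 0.48 against -0.02 over all genes.

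Tnfsf9 rose 18.4-fold with LPS in KO and 6.69-fold in WT (interaction 1.46, SE 0.304, edgeR adjusted p = 0.0044). Cd83 rose 5.24-fold in KO and 2.56-fold in WT (interaction 1.03, SE 0.138, edgeR adjusted p = 0.00017). Tnfsf4 rose 9.54-fold and 5.97-fold (interaction 0.68, SE 0.122, edgeR adjusted p = 0.0018). These 3 genes started lower in KO, and in KOL they stood at 0.881, 1.31 and 0.897 of the WTL level.

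Cd86 rose 8.16-fold in KO from a starting level 0.991 times that of WT (interaction 0.48, SE 0.099, edgeR adjusted p = 0.004). Cd40 rose 30.2-fold in KO from a starting level 0.484 times that of WT (interaction 0.38, SE 0.093, edgeR adjusted p = 0.012). The Cd40 term was lost without KO replicate 3 (0.33, edgeR adjusted p = 0.05) and by limma on log2(TPM + 1) (0.38, limma adjusted p = 0.16). Pdcd1lg2, without response in WT, had an interaction of 0.65 (SE 0.118, edgeR adjusted p = 0.0018).

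Icosl went the other way: its response was 1.58-fold in KO and 2.66-fold in WT (interaction -0.76, SE 0.118, edgeR adjusted p = 0.0006). Cd274 responded 3.62-fold in KO and 3.94-fold in WT, and its interaction was -0.12 (95% interval -0.36 to 0.11, edgeR adjusted p = 0.54). Cd80 gave 0.27 (95% interval 0.07 to 0.48, edgeR adjusted p = 0.092), which missed the threshold in the edgeR fit and passed it in DESeq2 (0.29, adjusted p = 0.042).

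**Figure D2:**
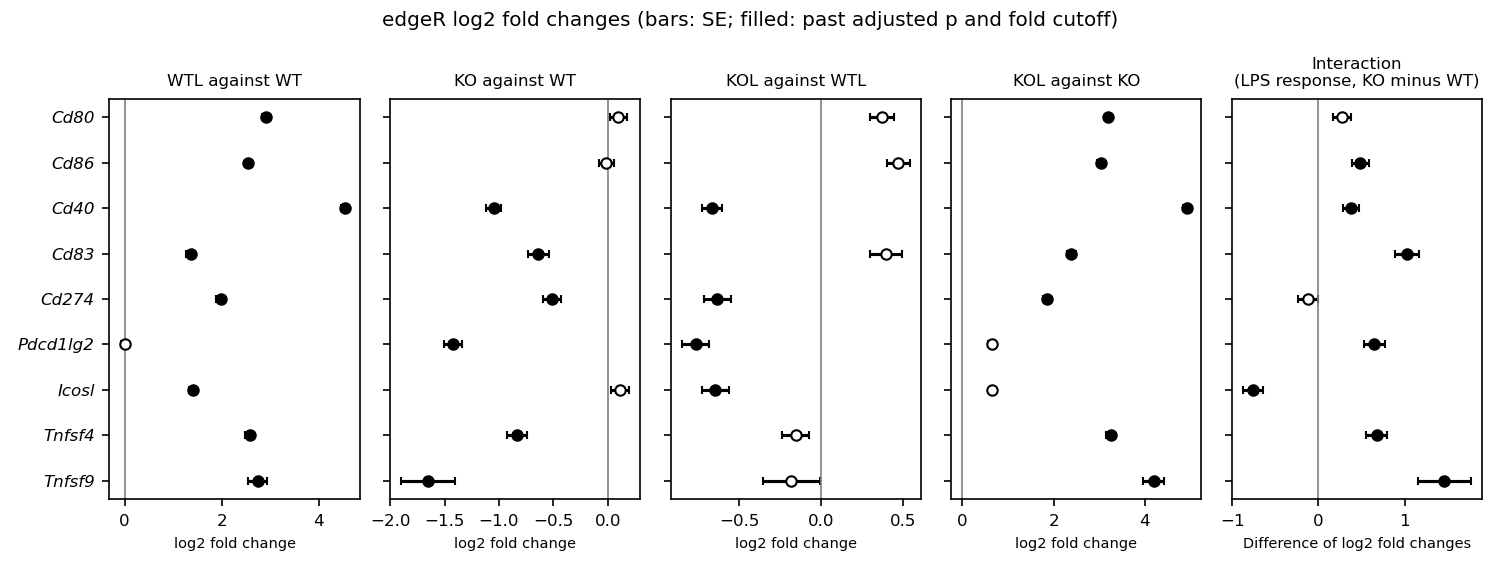
Log2 fold changes of the 9 genes in the 4 comparisons, and the difference of the LPS response between genotypes, with bars for the SE; filled points passed the adjusted p and the fold cutoff. In KO against WT the filled points lie between -1.65 and -0.51, and among the interactions only Icosl is filled to the left of 0.

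Ratios of TPM within a library do not depend on how libraries are scaled. Cd274 stood at 0.916, 0.956 and 0.974 of Cd80 plus Cd86 in WT, at 0.636, 0.614 and 0.529 in WTL, at 0.652, 0.685 and 0.671 in KO and at 0.277, 0.313 and 0.26 in KOL. KOL had the lowest ratio, below every library of the other groups, and WT the highest. Icosl was 0.339 to 0.381 of Cd80 plus Cd86 in WT and 0.385 to 0.4 in KO, but 0.142 to 0.167 in WTL and 0.0658 to 0.0805 in KOL.

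Cd40 stood at 0.456 to 0.616 of Cd80 plus Cd86 in WT and at 1.61 to 1.98 in WTL; the KO ratio was 0.235 to 0.266 and the KOL ratio 0.745 to 0.893. Pdcd1lg2 was 0.403 to 0.433 of Cd274 in WT and 0.211 to 0.245 in KO, and after LPS the ratio was 0.0943 to 0.115 in WTL and 0.0942 to 0.1 in KOL, where the genotypes overlapped. Cd80 to Cd86 moved little, with group means from 0.747 in WT to 0.88 in WTL. No test was made of these ratios.

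**Figure D3:**
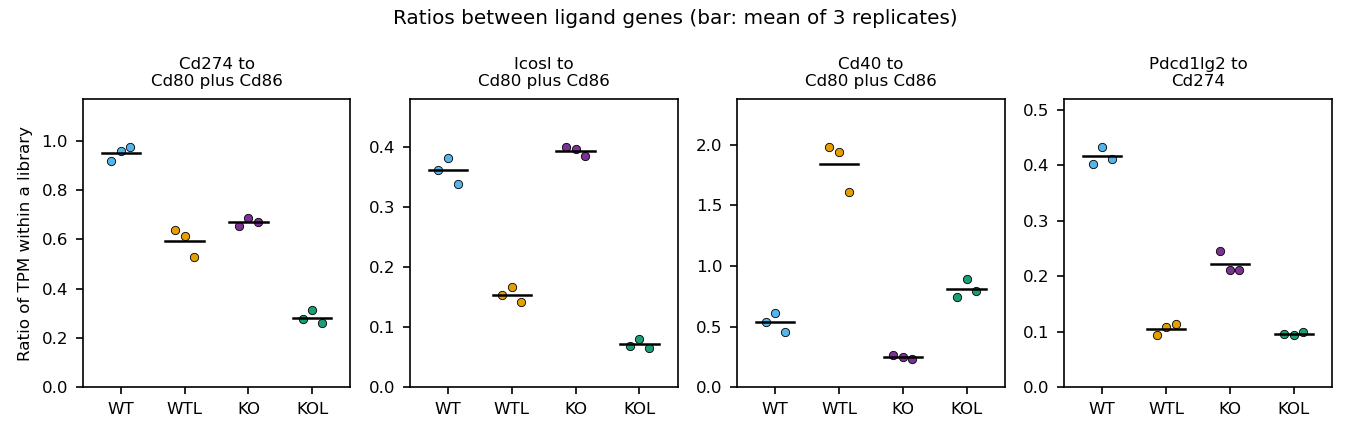
Ratios of TPM between ligand genes within each library, by group; points are libraries and bars are means of 3. The ratio of Cd274 to Cd80 plus Cd86 has a mean of 0.949 in WT and 0.283 in KOL.

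RSEM also gave each gene a mean transcript length, weighted by the estimated use of its transcripts. Cd83 has 2 annotated transcripts in GENCODE M21, a coding one of 2477 bases and a retained-intron one of 2158 bases. The authors' RSEM output names the same 2 transcripts for Cd83. From the mean length, the retained-intron transcript was estimated to make up 77.6%, 69% and 83.1% of Cd83 in WT and 84.7%, 81% and 85.6% in WTL. It made up 84.2%, 83% and 86.2% in KOL, and 40.2%, 47.2% and 43.3% in KO. The KO libraries thus stood apart from all others, and LPS-treated KO cells were close to WTL. These shares are inferred from the lengths alone, and reads over the intron were not examined. The sources differ on the kind of library (rRNA depletion or poly(A)), and whether unspliced RNA adds to the shares was not tested. Cd80 was longer after LPS, at 2263 to 2388.8 bases in WTL and 2215.1 to 2405.8 in KOL against 2151.1 to 2179.3 in WT and KO together. Its 3 transcripts have 1701, 3173 and 748 bases. Cd86 was longer in KO, at 1863.3 to 1991.5 bases, than in any library of the other groups, which lay between 1749.2 and 1857. Cd40 overlapped between groups, and Cd274, Tnfsf4 and Tnfsf9 have 1 transcript each. These lengths are given as a description, with no test.

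**Figure D4:**
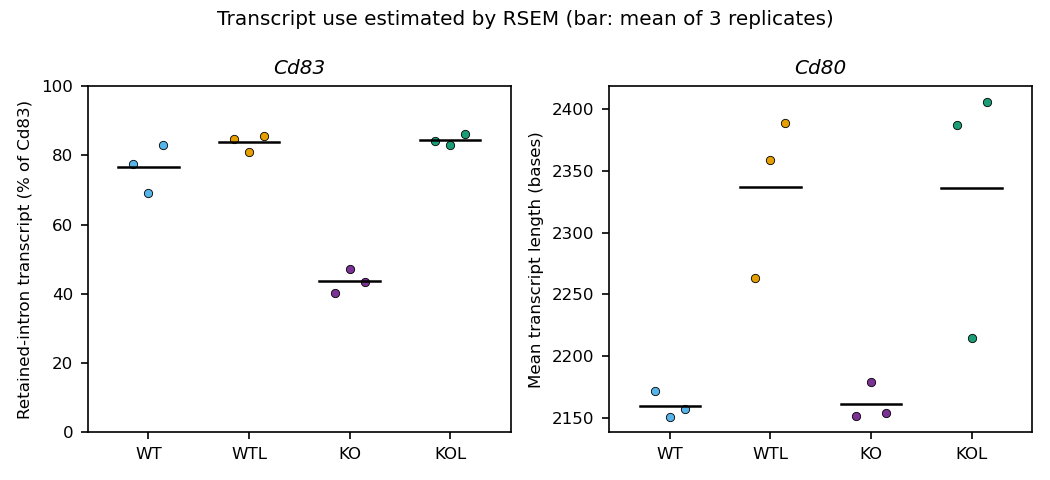
Estimated share of the retained-intron transcript among Cd83 transcripts (percent, left) and mean transcript length of Cd80 (bases, right, axis not from 0) in each library; bars are means of 3. KO libraries lie at 40.2 to 47.2% for Cd83, and Cd80 is longer in both LPS groups.

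Since CTCF acts on neighbourhoods of genes, the tested genes within 100 kb of each ligand gene were examined. Over all loci there were 33 such neighbours besides the ligand genes, of which 12 rose and 6 fell in KO against WT, where 17.3% and 17.2% of all genes did. Cd274 (chr19:29367455-29388095) and Pdcd1lg2 (chr19:29410919-29471161) lie 22824 bases apart on the plus strand of mm10. Plgrkt, which starts 65 bases from Cd274 on the opposite strand, fell in KO (log2 -1.02), as did Jak2 (-0.50), the kinase of the GM-CSF receptor. In the same neighbourhood Ric1 (log2 2.08) and Insl6 (1.56) rose. After LPS, Ric1 (log2 1.82) and Insl6 (1.91) were again higher in KOL than in WTL, Plgrkt was lower (-0.59), and Jak2 gave 0.01.

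Around Icosl (chr10:78069302-78083913, plus strand), all 6 tested neighbours rose in KO, where 17.3% of all genes did. They were Gatd3a (log2 1.75), Dnmt3l (0.92), Pwp2 (0.79), Pfkl (0.68), Cfap410 (0.65) and Trpm2 (0.60). Icosl itself, with 0.11, did not. After LPS 4 of the 6 were higher in KOL, where 12.5% of all genes were: Gatd3a (1.86), Pwp2 (1.28), Pfkl (1.15) and Cfap410 (0.97), while Icosl fell. Dnmt3l (0.50) and Trpm2 (0.56) were also higher by adjusted p, under the 1.5-fold cutoff. Near Tnfsf9 (chr17:57105325-57107757), its fellow TNF superfamily ligand Tnfsf14 rose in KO (log2 1.79), and Cd70, the ligand of CD27, rose with LPS in WT (5.39) and KO (5.11) with a difference between genotypes of -0.28 that did not pass the test. None of the tested genes lay within 100 kb of Tnfsf4.

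Antisense or opposite-strand genes overlap 3 of the 9: Gm36043 overlaps Cd274, A930007I19Rik overlaps Pdcd1lg2, and Gm11110 overlaps Tnfsf9. The strand setting of the counting is not given in the sources used here, so their reads and those of the ligand genes may not be cleanly apart. In WT, Gm36043 had a mean of 684 normalized counts beside 4169.4 for Cd274, and A930007I19Rik had 159 beside 726.38 for Pdcd1lg2. In KO against WT, A930007I19Rik fell as Pdcd1lg2 did (log2 -0.79).

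**Figure D5:**
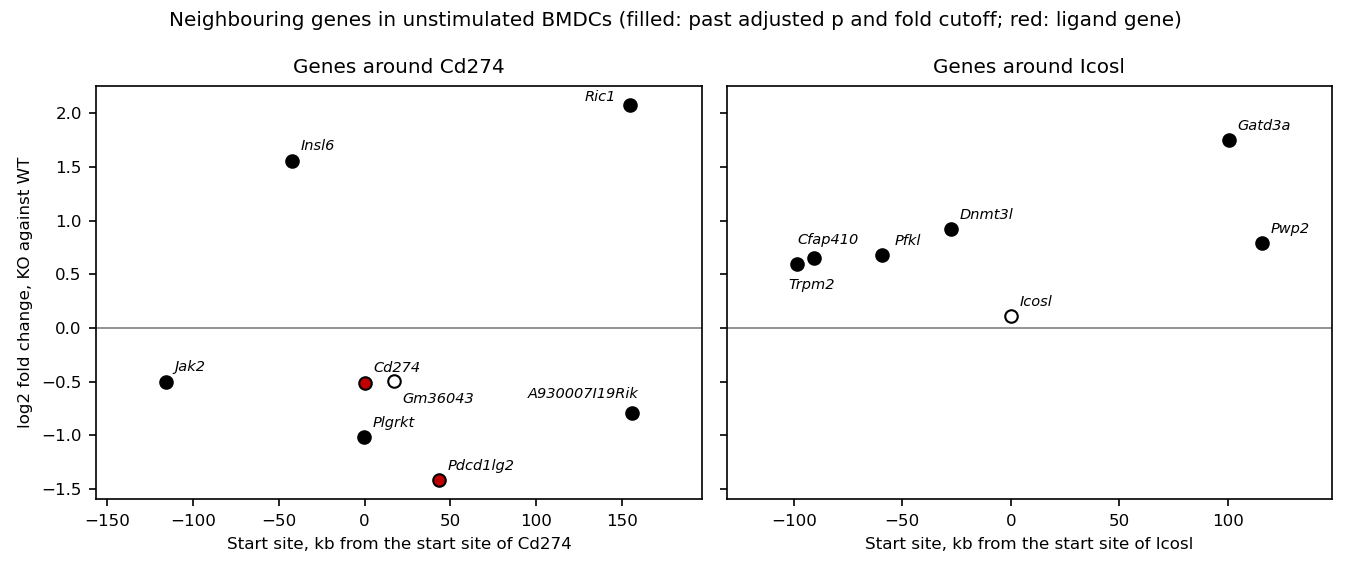
Log2 fold change in KO against WT of the tested genes around Cd274 and Icosl, against the distance of their start sites in kb; filled points passed the adjusted p and the 1.3-fold cutoff, and ligand genes past both are red. Cd274 and Pdcd1lg2 lie below 0 between Insl6 and Ric1, which lie above it, and all 6 neighbours of Icosl lie above Icosl.

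The receptors of these ligands are known mainly from T cells. Of 7 receptor genes 5 were tested, and 3 fell in KO against WT, where 17.2% of all genes fell: Icos (log2 -3.13, SE 0.243, edgeR adjusted p = 1.2e-07), Tnfrsf9 (-1.29) and Pdcd1 (-1.15, edgeR adjusted p = 0.047, lost in DESeq2). Icos, the receptor of ICOSL, had 61.545, 62.058 and 65.686 normalized counts in WT and 6.2805, 9.6012 and 5.5581 in KO, and rose with LPS in both genotypes (3.88-fold in WT and 7.04-fold in KO), though under 2-fold by limma on log2(TPM + 1), a scale that compresses low genes. Of 5 T cell markers, Cd3d, Cd3e, Cd3g and Cd4 had 0 to 9.3602 normalized counts over the 12 libraries, with Cd3e at 0 in all WT and WTL libraries. The other, Cd8a, had 12.964 to 16.534 in WT and 0.92635 to 4.486 in KO (log2 -2.71, edgeR adjusted p = 0.00047) and so was lower in KO as Icos was, and the summed T cell markers were 18.2 to 20.2 in WT and 1.92 to 8.97 in KO; their part in the fall of Icos was not tested. The CD40 ligand gene Cd40lg was at 0 in all groups, below detection at this depth. Tnfrsf9, encoding the 4-1BB receptor of Tnfsf9, had 378.88 to 421.69 normalized counts in KO, 923.17 to 1032.8 in WT, 1235.4 to 1920.2 in WTL and 1648.6 to 1901.2 in KOL. Like its ligand, Tnfrsf9 had a positive interaction (1.47, SE 0.182, edgeR adjusted p = 9.3e-05).

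Of 4 genes that act on the surface stability of these proteins, 1 fell and 0 rose in KOL against WTL, beside 12.5% of all genes each way. It was March1, a ubiquitin ligase that removes CD86 and MHC class II from the surface (log2 -1.20, SE 0.138, edgeR adjusted p = 6.8e-06). March8, of the same list, did not differ (log2 -0.04, edgeR adjusted p = 0.7). March1 had 1632.9, 1541.9 and 1544.2 normalized counts in KO and 301.09, 420.04 and 352.37 in KOL, against 1243.7 to 1389.8 in WT and 677.29 to 1010.1 in WTL. Its interaction was -1.47 (SE 0.187, edgeR adjusted p = 0.00011). Cmtm6, which stabilises PD-L1, rose 2.23-fold in WTL against WT (0.62 by limma on log2(TPM + 1)) and differed by -0.19 on the log2 scale between KOL and WTL, under the cutoff. Cmtm4, of the same list, fell to 0.474 of its WT level in WTL. It was higher in KOL than in WTL by 0.335 on the log2 scale, also under the cutoff. Over all genes, 12.6% rose and 9.99% fell in WTL against WT. The tables analysed here hold RNA only. The study also measured surface MHC class II, CD80 and CD86 protein by flow cytometry. It reported that LPS raised costimulatory molecules relatively more on CTCF-deficient than on WT BMDCs.

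Of 10 genes of CD40 signalling, 2 rose in WTL against WT, Traf1 and Nfkb2, and 1 fell, Map3k14, where 12.6% and 9.99% of all genes did, and the median log2 fold change was 0.77 against -0.02 over all genes. In KO against WT, where 17.2% of all genes fell and 17.3% rose, Traf6 (log2 -0.50), Relb (-0.48) and Birc2 (-0.49) fell and Traf5 rose (0.44). In KOL against WTL, with 12.5% of all genes in each direction, Birc3 fell (-0.59, just past the 1.5-fold cutoff and under it without WTL replicate 1 or 3 or KOL replicate 1 or 3) and Map3k14 rose (0.82).

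Of 26 other B7, TNF superfamily and checkpoint ligands, 20 were tested, and in WTL against WT 11 rose and 1 fell (12.6% and 9.99% over all genes), with a median log2 fold change of 1.88. The fall was that of Vsir, encoding the checkpoint ligand VISTA (log2 -2.15). In KO against WT 3 rose and 2 fell, no more than the 17.3% and 17.2% over all genes. Tnf fell to 0.282 of its WT level (log2 -1.82, SE 0.087, edgeR adjusted p = 7.6e-10), and Cd48, the ligand of CD244 and CD2, rose 2.74-fold (log2 1.46, SE 0.082, edgeR adjusted p = 4.3e-09). In KOL against WTL 3 rose and 5 fell (12.5% each way over all genes), among them Tnf (log2 -1.10), the adhesion ligand Icam1 (-1.08) and, in the other direction, Cd48 (1.09) and Tnfsf8 (0.77). For the interaction 3 were positive and 7 negative in this list (8.7% and 8.75% over all genes), with a median of -0.19, where the 9 genes had 6 and 1.

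The genes most like each ligand gene were found by Pearson correlation of log2 normalized counts over the 12 libraries, among genes with a mean of at least 100. These correlations describe 4 groups of 3 libraries and share their depth and scaling. Cd80 was closest to the chemokine gene Ccl3 and the granule proteoglycan gene Srgn (both r = 0.999), and Cd86 to Bcl2a1d (0.999) and then to Cd80 (0.998). Cd40 was closest to Tnfaip3, the NF-kappa-B inhibitor A20, and Nr4a3 (both 0.999), Cd83 to Basp1 (0.996) and Hacd2 (0.995), and Cd274 to Gm49342 (0.997) and Dennd5a (0.997). Icosl was closest to Jaml (0.994) and Axl (0.991), Tnfsf4 to Rabgef1 (0.999) and Ifi47 (0.998), and Tnfsf9 to Sri (0.996) and Marcksl1 (0.995). The closest matches of Pdcd1lg2, Adam23 and Dhrs4 (both 0.988), were the weakest, and both shared its low level in KO: Dhrs4 had a mean of 17.6 normalized counts in KO and 232 in WT.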

How the data were processed

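Per the labels and the study's methods, the authors used Trim Galore for trimming, STAR for alignment to mm10 (2.5.1 in the submitters' processing notes, another version in the study's reporting summary) and RSEM for gene quantification. The deposited tables hold, per gene and library, an expected count, which need not be whole, and a TPM value, both made by the authors, with a mean transcript length. The kind of library is described differently in the sources (rRNA depletion or poly(A)), and the strand setting is not given in the sources used here. Expected counts were rounded and normalized by TMM in edgeR 4.0.16 (R 4.3.3). Genes were filtered with filterByExpr, and quasi-likelihood tests used all 12 libraries in 4 groups, with Benjamini-Hochberg adjustment over 14008 genes. Calls needed an adjusted p under 0.05 and a fold above 2 (LPS), 1.3 (KO against WT) or 1.5 (KOL against WTL); the interaction had no fold cutoff. Totals of 12769773 to 16586334 counts set the precision of low genes. Normalized counts are scaled to a library of 14667315. Ratios and lengths are descriptions. The 9 genes, the gene lists and the named-gene rule (every ligand gene, Ctcf, the called genes of each list, tested genes within 100 kb and the 2 most correlated genes) were chosen with earlier results of these data known. The alternatives were DESeq2 1.42.0, its size factors, no filter, a replicate block, the compared libraries alone, limma 3.58.1 on log2(TPM + 1), no fold cutoff and leaving out each library. The scripts were tested on simulated data with 200 changed genes. Gene positions are from GENCODE M21, which matched 55154 of 55335 identifiers.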

Additional observations from a re-analysis of the deposited data

Results flagged for a closer look

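The LPS response of 7 of the 9 ligand genes differed between genotypes by the interaction term of the edgeR fit (the log2 response in KO minus that in WT). Tnfsf9 had 1.46, Cd83 1.03, Tnfsf4 0.68, Pdcd1lg2 0.65, Cd86 0.48 and Cd40 0.38, all with the greater response in KO. Icosl had -0.76, with the smaller response in KO. The term equals the log2 change of KOL against WTL minus that of KO against WT, so a lower start in KO enters it. For Tnfsf9, Cd83, Tnfsf4, Pdcd1lg2 and Cd40 the starting level was lower in KO, while Cd86 and Icosl were not called between KO and WT. In KOL, Cd40 and Pdcd1lg2 stood at 0.63 and 0.587 of the WTL level, and Tnfsf9 and Tnfsf4 did not pass the test. Cd83 and Cd86 were higher in KOL than in WTL, under 1.5-fold. The Cd40 term was lost by limma on log2(TPM + 1) and without KO replicate 3.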

How the results depend on the processing

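Of the values for the 9 genes under the alternatives, 567 kept their direction and their side of the threshold, 6 lost the call, 3 gained it and 9 turned direction. The turns were of values near 0: Pdcd1lg2 in WTL against WT (0.003 on the log2 scale in the reported fit) was -0.0219 without a filter, -0.00574 with the compared libraries alone, -0.51 by limma on log2(TPM + 1) and -0.123 to 0.044 with 1 library left out, and Cd80 in KO against WT was -0.000216 by limma on log2(TPM + 1). Icosl in KO against WT had an adjusted p of 0.033 in edgeR with the compared libraries alone, at a log2 fold change of 0.111, under the cutoff. Without a fold cutoff, 3 genes were higher in KOL against WTL in place of 0. With 1 library left out, 2 to 4 genes were lower in KOL against WTL, the 2 arising without KOL replicate 3. The Cd80 interaction passed in DESeq2 (0.29) and without WTL replicate 3 (0.35) or KOL replicate 2 (0.31). The labels do not say whether same-numbered libraries share animals or cultures. Correlations of their deviations from the group means ran from -0.286 to 0.112, and differently numbered libraries were not set beside them. These values cannot settle whether the libraries are paired. The fit with the replicate number as a block gave 6 genes lower in KO against WT, as without it. Depth limits genes of few counts, such as Icos in KO, more than the 9 genes.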
